A study of Mus musculus with 20 samples.

Results

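Cbr2, F13a1 and Fcrls are 3 of the 54532 genes counted in liver metastases of colorectal cancer (CRLM), and they were nearly silent in normal mouse liver. They were chosen from the data, as genes with the largest rises from medium-content to high-content tumor, so that rise is described here without a test. All 3 were already higher in the smallest metastases than in normal liver, and they were among the more abundant transcripts of F4/80+ and CD11b+ cells taken from metastases. F13a1 and Fcrls were 4.37 and 4.31 times as high in high-content as in medium-content tumor by the fitted fold change, and Cbr2 was 7.47 times as high.

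The 14 tissue libraries came from C57BL/6 mice of WT genotype, labelled male, although the methods describe female mice aged 6 to 8 weeks. Normal liver (con, n = 2) was taken at day 0 from mice given normal saline, and all other mice received MC38 cells, a C57BL/6 colon adenocarcinoma line, through the spleen and portal vein. Tumor-centric tissue held low-content tumor at day 9 (Lt, n = 2), medium-content tumor at day 9 (Mt3, n = 2) and day 11 (Mt2 and Mt1, n = 2 each), and high-content tumor at day 12 (Ht, 3 libraries). The tumor-free liver tissue remote from tumor at day 12 (L-con) is a single library, so no test involves it. F4/80+ cells and CD11b+ cells (n = 3 each, day 11, WT) were selected with magnetic beads from Mt2 metastases of mice given the same cells, and their labels give no sex. Ht replicates 1 and 3 are described in the methods as identical samples, so their counts were summed and Ht entered every fit as 2 samples. The methods state that 2 livers were prepared for each tissue group except L-con, and the labels tie no library to a mouse. For the sorted cells neither says that replicates came from separate mice, so their p-values measure only the spread between these samples.

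Carbonyl reductase 2, the product of Cbr2, is an NADPH-dependent enzyme known from lung, and its transcript also marks tissue-resident macrophages. F13a1 encodes the A subunit of coagulation factor XIII, the transglutaminase that cross-links fibrin, which platelets, monocytes and macrophages make, whereas the B subunit, F13b, comes from hepatocytes. Fcrls encodes a scavenger receptor related to Fc receptors that is best known from microglia, the macrophages of the brain.

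Both count tables list the 3 genes at the same places on the GRCm38 (mm10) assembly, all on the minus strand. Cbr2 (ENSMUSG00000025150) lies at chr11:120729489-120732114 with a summed exon length of 1327 bases, and its longest coding transcript in GENCODE M21 has 8 exons and 244 codons. F13a1 (ENSMUSG00000039109) lies at chr13:36867178-37050244 with 6739 bases, 15 exons and 732 codons. Fcrls (ENSMUSG00000015852) lies at chr3:87250758-87263738 with 2334 bases, 8 exons and 509 codons.

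The 250 bases before a RefSeq transcription start (GRCm38.p6) are shown for each gene, with the letters of 3 motifs in capitals. The myeloid factor PU.1 can bind the core GAGGAA. Factors of the MAF family recognize elements that hold TGCTGA. The word TATAAA is the usual form of the TATA box. Each runs 5′ to 3′ on the minus strand, from chr11:120732022-120732271 for Cbr2, chr13:37050245-37050494 for F13a1 and chr3:87263525-87263774 for Fcrls.
Cbr2: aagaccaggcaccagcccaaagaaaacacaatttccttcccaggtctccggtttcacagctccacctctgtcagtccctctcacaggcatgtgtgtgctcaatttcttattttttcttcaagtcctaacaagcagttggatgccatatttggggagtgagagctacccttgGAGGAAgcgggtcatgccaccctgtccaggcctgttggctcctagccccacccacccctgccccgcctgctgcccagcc
F13a1: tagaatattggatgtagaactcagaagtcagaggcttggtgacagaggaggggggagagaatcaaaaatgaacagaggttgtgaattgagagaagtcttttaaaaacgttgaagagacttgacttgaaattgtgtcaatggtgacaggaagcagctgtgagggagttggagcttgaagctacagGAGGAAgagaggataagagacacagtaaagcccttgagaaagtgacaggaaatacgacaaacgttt
Fcrls: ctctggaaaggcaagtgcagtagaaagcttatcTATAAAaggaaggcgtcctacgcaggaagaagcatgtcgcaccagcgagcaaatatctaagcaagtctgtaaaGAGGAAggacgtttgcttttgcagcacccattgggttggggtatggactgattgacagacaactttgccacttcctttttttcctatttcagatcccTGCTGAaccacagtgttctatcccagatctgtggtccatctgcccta
GAGGAA began 79 bases before the start of Cbr2, 66 bases before that of F13a1 and 144 bases before that of Fcrls. On either strand the same 6 letters were in 28.3% of the 32851 RefSeq windows that reach from 250 bases before to 50 bases after a start, so their presence is common. Before the Fcrls start TGCTGA lay at 47 bases and TATAAA at 217 bases, and windows with these motifs made up 19.5% and 13.6% of all. The other motifs searched on both strands were TGANTCA for AP-1, TTGCNNAA for C/EBP and TGTGGT for RUNX, which 7.81%, 10.8% and 16.8% of windows hold. Only the Fcrls window held a RUNX match among these 3 genes. Its TGTGGT matches began 41 and 18 bases before the start, the former on the opposite strand and directly after TGCTGA. In the 50 bases after the start, which are not printed, Cbr2 had TGCTGA on the opposite strand at position 41 and F13a1 had GAGGAA at position 17. A second RefSeq start of F13a1 lies 1031 bases inside the first and had GAGGAA at position 14. GENCODE M21 puts the outermost start 93 bases upstream of the RefSeq start for Cbr2 and 214 bases upstream for Fcrls, so part of each printed window may be transcribed. These matches are letters in a window and no binding was measured.

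Levels are given as CPM, counts scaled to a common library size, on a trimmed mean of M-values (TMM) scale shared by all samples. In con, Cbr2 had 0 and 2 counts, Fcrls had 0 and 1, and F13a1 had 4 and 3. Tissue libraries held 16032085 to 18246623 counts and sorted libraries 17785496 to 20548370, and a count of 0 allows up to 3 counts. Cbr2 and Fcrls were below that floor in normal liver, and F13a1 was close to it.

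Tumor-free liver tissue of a mouse with metastases stayed close to con for Cbr2 and lay higher for F13a1. L-con had 1 count of Cbr2, 4 of Fcrls and 30 of F13a1. Per normalized library, F13a1 was 8.34 times as high in L-con as in pooled con counts (exact 95% counting interval 3.59 to 22.5). The same ratio was 7.78 for Fcrls, with an interval from 0.77 to 383 that includes equality. For Cbr2 it was 0.973 (0.0165 to 18.7). These intervals cover counting error only.

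In low-content metastases of day 9 all 3 transcripts were clearly present. Cbr2 measured 3.95 and 1.53 CPM in the Lt samples, against 0 and 0.1725 in con. F13a1 measured 17.9 and 14.3 CPM in Lt, against 0.366 and 0.259 in con. Fcrls measured 9.77 and 5.60 CPM in Lt, against 0 and 0.0862 in con. Both Lt samples lay above both con samples for each gene. The contrast of con with Lt was not used to choose the genes, and each passes the filter on low counts on the Mt and Ht samples alone, whatever its counts in con and Lt. Each was called higher (adjusted p of at most 0.05 and a log2 fold change of at least 1, edgeR quasi-likelihood F test over 17187 genes), a call that 12.4% of all genes tested received. Those 2133 genes became 1410 without con replicate 1, 720 without con replicate 2 and 914 without Lt replicate 2. F13a1 had a log2 fold change of 5.67 (SE 0.43, edgeR adjusted p = 0.00103), Fcrls one of 7.24 (SE 1.03, edgeR adjusted p = 0.00268) and Cbr2 one of 4.85 (SE 0.94, edgeR adjusted p = 0.00971). These fitted sizes depend on the prior count that edgeR adds to the few reads of con. The ratio of pooled counts was 51.4 for F13a1 (exact 95% counting interval 24.8 to 129), 170.5 for Fcrls (30.3 to 6766) and 30.1 for Cbr2 (8.06 to 253). Without con replicate 1, the library with no Cbr2 read, the Cbr2 difference was 3.93 on the log2 scale and missed the threshold (edgeR adjusted p = 0.0616).

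Genes of monocytes and of macrophages in general were higher in Lt as well. Of 8 monocyte genes tested, 7 were called higher and none lower, with a median log2 fold change of 4.72 against 0.101 over all genes tested. Vcan, a matrix proteoglycan made by monocytes, rose by 10.83 and Ccr2, the receptor that draws monocytes from blood, by 4.78. With at most 3 counts of Vcan in each con library, the size of its rise depends on the prior count. Of 13 macrophage genes, 10 were called higher (median 1.70), among them the complement genes C1qa (1.61), C1qb (1.70) and C1qc (1.47). That count was 1 without con replicate 2 and 4 without Lt replicate 2, fits in which 1 sample stands for its group. No gene of 10 on the Kupffer cell list, the resident macrophages of liver, was called in either direction (median 0.515), and its lectin receptor Clec4f had a log2 difference of 0.65 (edgeR adjusted p = 0.486). In Lt the share of all genes called lower was 0.256%, and none of the genes on any list was. In a bulk sample fewer cells of a type and less RNA per cell cannot be told apart.

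Fibroblast genes rose beside them, with 7 of 10 called higher (median 2.51), including Col1a1 (4.33) and Col3a1 (4.99), the chains of fibrillar collagens. The neutrophil list had 5 of 9 called higher (median 2.77), the dendritic cell list 2 of 6 (Ccr7 at 3.68 and Flt3 at 2.02) and the mesothelium list 1 of 5 (Msln, mesothelin, at 5.86). Without con replicate 2 the counts were 3 for fibroblast genes, 3 for neutrophil genes and 0 for dendritic cell genes, and without Lt replicate 2 the last was 1. The summed CPM of 6 adipocyte genes was 36.2 to 85.2 in Lt against 35.3 to 52.0 in con, and Adipoq, Plin1 and Lep were above 3 counts in at least 1 library of Lt and in no library of another tissue group. None of the 6 was called, nor was any of 13 endothelial genes (median -0.129), 13 hepatocyte genes (median -0.135), 4 platelet and megakaryocyte genes, 2 lung epithelial genes or 7 genes of peritoneal macrophages. The part of these cell types in the rise of Cbr2, F13a1 and Fcrls was not tested.

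Genes that mark tissue-resident macrophages elsewhere were called about as often as genes in general. On a list of 22 such genes, which holds none of the 3 themselves, 21 were tested and 3 were called higher in Lt: the chemokine Ccl8 (4.33), the lectin receptor Clec10a (2.56) and the chemokine Pf4 (1.78). The median over the list was 0.0251, and the count called higher was 1 without con replicate 2 and 1 without Lt replicate 2. The mannose receptor Mrc1 differed by -0.21 (edgeR adjusted p = 0.471), the hyaluronan receptor Lyve1 by -1.35 (edgeR adjusted p = 0.171) and the folate receptor Folr2 by 1.40 (edgeR adjusted p = 0.119).

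Through the medium-content samples the 3 genes stepped up between different groups. Cbr2 measured 1.963 and 0.851 CPM in Mt3, 3.38 and 5.33 in Mt2, and 7.16 and 5.60 in Mt1. Its Mt3 values overlapped those of Lt, and the values of Mt2 and Mt1 did not overlap. F13a1 measured 13.2 and 15.0 CPM in Mt3, 16.9 and 22.1 in Mt2, and 54.8 and 29.8 in Mt1. Its values in Lt, Mt3 and Mt2 formed an overlapping run from 13.2 to 22.1 CPM, with Mt1 above it. Fcrls measured 13.7 and 4.98 CPM in Mt3, 20.96 and 41.4 in Mt2, and 43.0 and 38.4 in Mt1. Here the step came earlier, since Lt and Mt3 overlapped, Mt2 lay above both, and Mt2 and Mt1 overlapped. From Mt3 to the mean of Mt2 and Mt1, the log2 fold change was 1.91 for Cbr2, 1.93 for Fcrls and 1.02 for F13a1, given without a test because these samples chose the genes. Day 9 and day 11 cannot be told apart from the size of the metastases in this step.

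High-content tumor had the highest tissue values of all 3 genes. Cbr2 measured 37.9, 20.1 and 23.7 CPM in Ht replicates 1, 2 and 3. F13a1 measured 102, 98.4 and 97.9 CPM, nearly the same in each library. Fcrls measured 127, 86.8 and 93.3 CPM. Each Ht library lay above all 6 Mt samples for each gene, as the choice of the genes had fixed. The fitted log2 fold change from Mt to Ht was 2.90 (SE 0.38) for Cbr2, 2.13 (SE 0.20) for F13a1 and 2.11 (SE 0.34) for Fcrls. With total-count scaling these values were 3.45, 2.69 and 2.64, while the median of all genes moved from 0.00342 to 0.549. Over all genes 1.5% were called higher and 13.4% lower in Ht than in Mt. The 257 genes called higher became 87 to 810 when a single Mt sample was left out, with the fewest without Mt1 replicate 1 (87) and Mt3 replicate 1 (89) and the most without Mt2 replicate 2 (810). The calls rest on both Ht samples: without replicate 2 edgeR called 0 genes in either direction, with 4074 genes at an unadjusted p below 0.05, and without the sum of replicates 1 and 3 it called 0, with 3760 genes. From Lt, the log2 fold change to Ht was 3.20 for Cbr2, 2.61 for F13a1 and 3.66 for Fcrls.

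**Figure D1:**
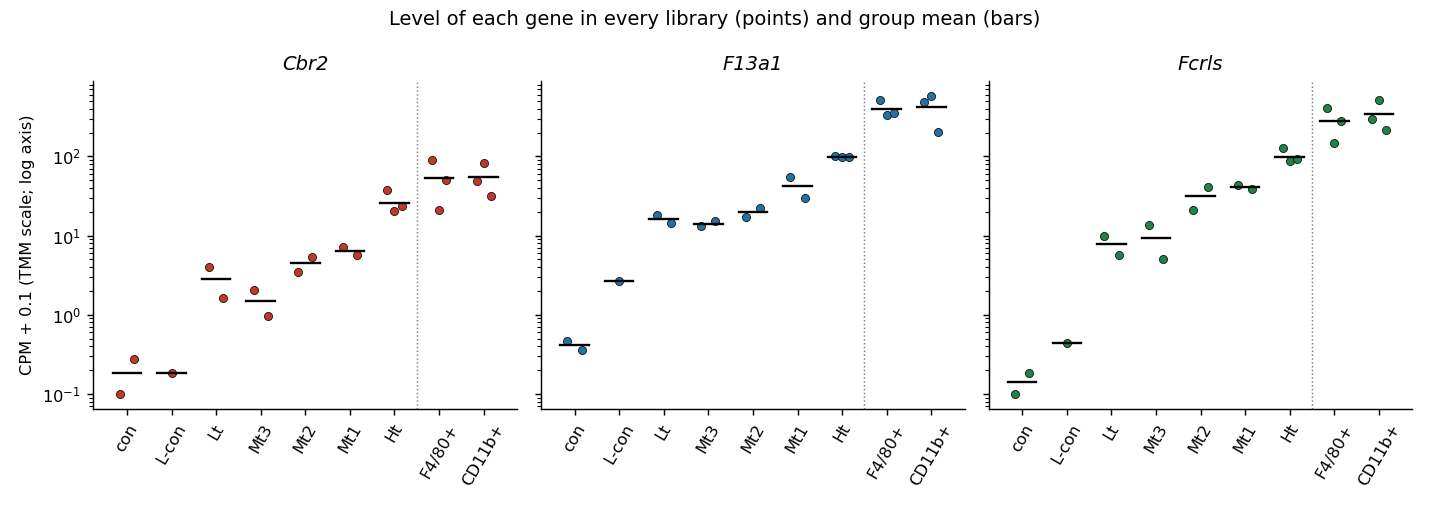
CPM plus 0.1 on a log axis in each library (points) for con, L-con, Lt, Mt3, Mt2, Mt1, Ht and the sorted F4/80+ and CD11b+ cells (right of the dotted line), with group means (bars; the mean of Ht takes replicates 1 and 3 as 1 sample). Cbr2 runs from 0 CPM in con to 20.1 to 37.9 in Ht, F13a1 to 97.9 to 102 and Fcrls to 86.8 to 127. On this TMM scale the sorted libraries lie above Ht for F13a1 and Fcrls and overlap it for Cbr2.

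Libraries of the same Ht tissue did not give the same Cbr2 value. Per total count, Ht replicate 1 had 1.60 times the Cbr2 of replicate 3 (exact 95% counting interval 1.45 to 1.78), although the methods describe them as identical samples. Fcrls was 1.36 times as high (1.29 to 1.43), whereas F13a1 was 1.05 times as high with an interval that includes equality (0.989 to 1.10). Of the 6754 genes with at least 500 counts in both libraries, 1.94% were farther apart than Cbr2, 7.51% farther apart than Fcrls and 79.4% farther apart than F13a1, and the median gene differed 1.12-fold. The spread of Cbr2 and Fcrls between these libraries is thus wider than counting error.

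Other genes rose from Mt to Ht by about as much. Ranked by fitted fold change among genes called higher, with Ht values above all Mt values and an average log2 CPM of at least 1, Cbr2 was at 1, F13a1 at 4 and Fcrls at 5. Gzmc, a granzyme of cytotoxic lymphocytes (2.72), and Aplnr, the apelin receptor (2.13), came between them, under a limit on level that was set here. Just outside stood Ogn, which encodes the matrix proteoglycan osteoglycin (2.01), and Nxpe5 (1.87). In the sorted cells Nxpe5 averaged 51.1 CPM in F4/80+ and 59.5 in CD11b+ cells, against 0.165 and 0.489 for Gzmc, 4.14 and 4.92 for Aplnr and 3.78 and 1.93 for Ogn. By that measure Nxpe5 resembled the trio and the other neighbours in rank did not, an observation made after their values were seen.

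Other macrophage genes changed less from Mt to Ht, but the 3 genes were chosen as the largest rises there. None of 13 macrophage genes was called in either direction, beside 1.5% called higher and 13.4% called lower over all genes. All 13 differences were positive, with a median of 0.454 on the log2 scale. Adgre1, which encodes F4/80, differed by 0.35 (edgeR adjusted p = 0.275), and its level averaged 108.6 CPM ± 23.2 (SD, n = 6) in Mt and 136.8 ± 18.98 (SD, n = 2) in Ht. None of 8 monocyte genes was called either (median 0.216), and 2 were called higher without Mt2 replicate 2. The Kupffer cell list went the other way, with 9 of 10 called lower (median -2.57). Clec4f fell by 2.59 and Slc40a1, the iron exporter ferroportin, fell by 2.15. All 13 hepatocyte genes were called lower (median -4.02), and their summed level was 32290 to 160400 CPM in Mt and 4569 to 6688 CPM in Ht. Fibroblast genes had 2 of 10 called higher, Fap (1.32) and Pdgfra (1.07), and none lower, and neither was called without Mt3 replicate 1, Mt2 replicate 1 or Mt1 replicate 1. Endothelial genes had 3 of 13 called lower, neutrophil genes 1 of 9 and dendritic cell genes none of 6, with no gene of these lists called higher. As for all genes, no gene of any list was called in a fit with 1 Ht sample.

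Genes on the list of tissue-resident macrophages split between these directions in Ht. Of 21 tested, 3 were called higher, against 1.5% of all genes. They were Ltc4s, the leukotriene C4 synthase (1.61), Pf4 (1.26) and Stab1, a scavenger receptor shared with sinusoidal endothelium (1.15). Called lower were 6 genes, against 13.4% of all genes: Igf1 (-3.13), Selenop (-2.52), the phosphatidylserine receptor Timd4 (-2.33), the chemokine Ccl24 (-2.03), Colec12 (-1.80) and the hemoglobin receptor Cd163 (-1.62). Hepatocytes make Igf1 and Selenop as well, and Timd4 is also on the Kupffer cell list. Mrc1 (0.74, edgeR adjusted p = 0.0109) and the transcription factor gene Maf (0.66, edgeR adjusted p = 0.0282) passed on p but not on size. The list had a median of -0.595 and its counts moved with the samples used, from 0 to 4 higher and 0 to 7 lower when single samples were left out. Both counts were 0 with either Ht sample left out, and the count called higher was 1 without Mt3 replicate 2.

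**Figure D2:**
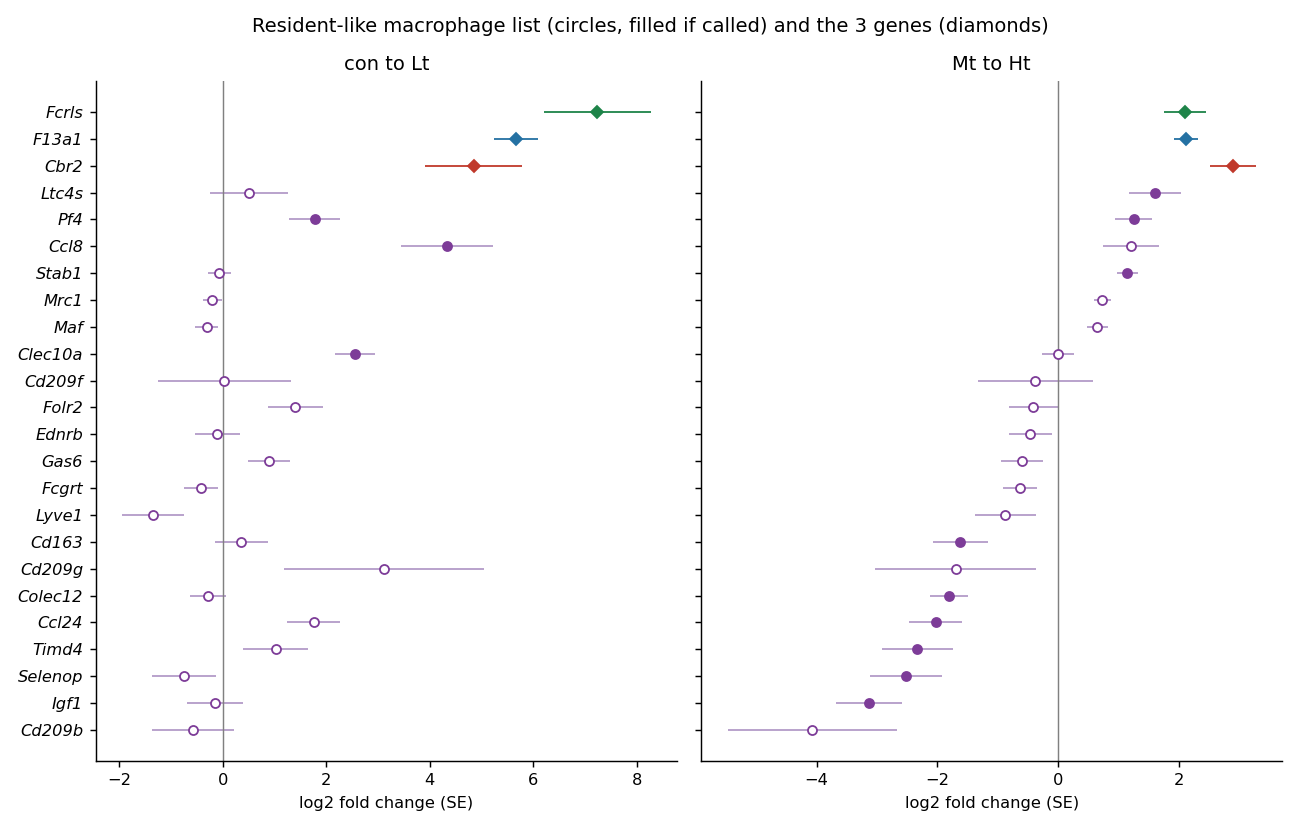
Log2 fold change with its standard error from con to Lt (left) and from Mt to Ht (right) for the genes tested on the list of tissue-resident macrophage genes (circles, filled where called) and for Cbr2, F13a1 and Fcrls (diamonds). The 3 genes lie at 4.85 to 7.24 on the left and 2.11 to 2.90 on the right, while the list has medians of 0.0251 and -0.595. The Mt to Ht values of the diamonds chose them.

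Levels of the 3 genes were also set against the macrophage list within each sample. The same Mt and Ht values chose the genes, and the macrophage mean moved far less than they did, so higher relative levels in Ht follow from the choice. The measure is log2(CPM + 1) of a gene minus the mean of log2(CPM + 1) over the 13 macrophage genes, and it is a description with no test. Cbr2 lay between -5.96 and -4.04 in the 6 Mt samples and at -2.32 and -2.98 in the 2 Ht samples. F13a1 lay between -2.85 and -1.26 in Mt and at -0.65 and -0.74 in Ht. Fcrls lay between -4.27 and -1.61 in Mt and at -0.51 and -0.92 in Ht. The mean difference was 2.03 for Cbr2, 1.60 for F13a1 and 1.61 for Fcrls. The macrophage mean itself was 6.20 to 7.22 in Mt and 7.30 to 7.38 in Ht.

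From con to Lt the relative level behaved differently among the 3. F13a1 went from -4.62 and -4.13 in con to -1.97 and -2.90 in Lt, and Fcrls from -5.07 and -4.35 to -2.78 and -4.11. Cbr2 did not separate, with -5.07 and -4.24 in con and -3.90 and -5.49 in Lt. With counts of 0 to 2 the con values of Cbr2 and Fcrls are set mainly by the added 1 and by the macrophage mean. In Lt and in Mt3, replicate 2 had the higher macrophage mean and the lower relative level of all 3 genes.

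**Figure D3:**
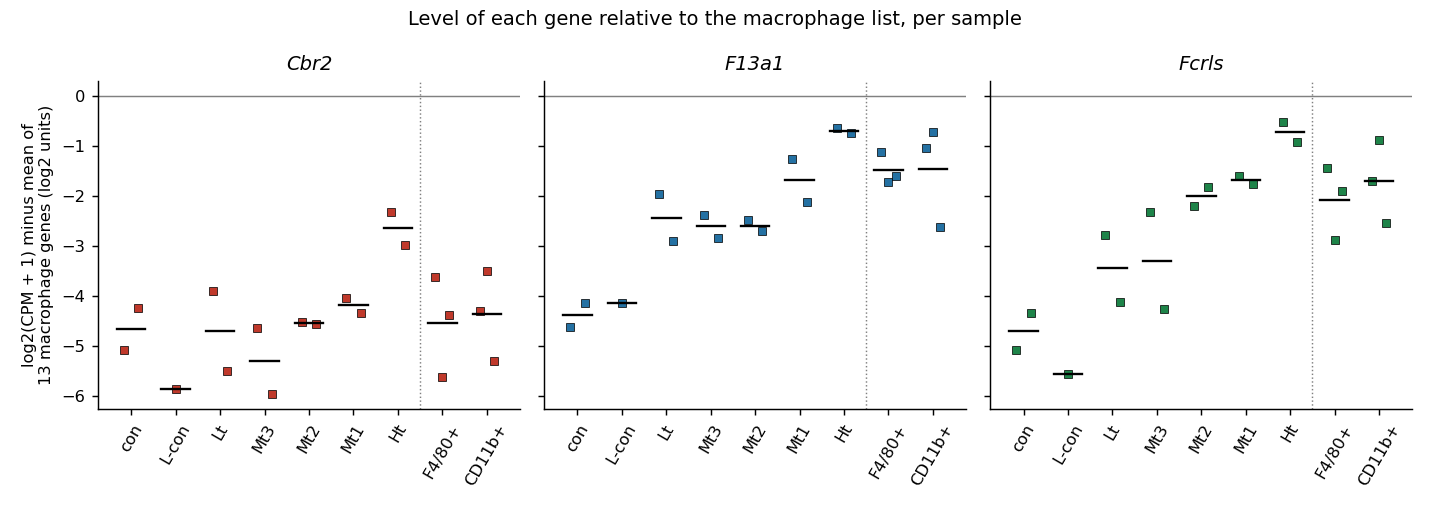
Log2(CPM + 1) of each gene minus the mean over 13 macrophage genes, in log2 units, per sample (squares; Ht replicates 1 and 3 summed) with group means (bars). As the choice of the genes fixed, both Ht squares lie above all Mt squares for each gene, at -2.98 to -2.32 for Cbr2, -0.74 to -0.65 for F13a1 and -0.92 to -0.51 for Fcrls.

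On the shared TMM scale every sorted library carried more F13a1 and Fcrls than any tissue library. Cbr2 in sorted cells overlapped its level in Ht. With total-count scaling Fcrls overlapped too, at 162.8 CPM in F4/80+ replicate 2 and 193.6 CPM in Ht replicate 1. F13a1 still did not, at 194.8 CPM or more in sorted and 156.1 CPM or less in Ht libraries. In F4/80+ replicates 1, 2 and 3, Cbr2 measured 89.9, 21.2 and 50.3 CPM, F13a1 511, 328.5 and 351 CPM, and Fcrls 409.5, 146 and 282 CPM. In CD11b+ replicates 1, 2 and 3, Cbr2 measured 48.96, 83.5 and 31.2 CPM, F13a1 481, 580 and 205 CPM, and Fcrls 301, 517 and 217 CPM. F4/80+ replicate 2 and CD11b+ replicate 3 had less Cbr2 than Ht replicate 1, at 37.9 CPM. The populations overlapped for every gene. No difference between them passed the edgeR quasi-likelihood F test over 14263 genes, which called 0.00701% of all genes higher and 0.0701% lower in F4/80+ cells. F4/80+ against CD11b+ cells gave a log2 fold change of -0.14 for F13a1 (SE 0.37, edgeR adjusted p = 0.870), -0.35 for Fcrls (SE 0.42, edgeR adjusted p = 0.706) and -0.07 for Cbr2 (SE 0.52, edgeR adjusted p = 0.959). With so few calls among all genes, this comparison does not show that the levels were equal.

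Replicate libraries of a population differed by more than the populations did, and the 3 genes took the same order in each. In F4/80+ cells replicate 1 had the most and replicate 2 the least of each gene, and in CD11b+ cells replicate 2 had the most and replicate 3 the least. Highest over lowest was widest for Cbr2, from 21.2 to 89.9 CPM in F4/80+ cells, and narrowest there for F13a1, from 328.5 to 511. In CD11b+ cells it was widest for F13a1, from 205 to 580 CPM, and narrowest for Fcrls, from 217 to 517. Adgre1 varied less, from 691 to 784 CPM in F4/80+ and from 507 to 547 CPM in CD11b+ cells. Kupffer cell genes also varied in F4/80+ cells, with a summed level of 827.9 to 3056 CPM, against 178.6 to 215.2 CPM in CD11b+ cells. The neutrophil list summed to 1305 to 4859 CPM in CD11b+ and 178.7 to 697.4 CPM in F4/80+ cells. All 10 Kupffer cell genes were higher in F4/80+ cells (median 2.92) and all 9 neutrophil genes lower (median -3.39), and none of either list was called. Endothelial genes (11 of 12 higher, median 1.40), hepatocyte genes (11 of 12, median 1.04) and fibroblast genes (9 of 10, median 0.844) also leaned to F4/80+ cells. Dendritic cell genes (0 of 6 higher, median -1.78) and monocyte genes (1 of 8, median -0.543) leaned the other way. Without CD11b+ replicate 3, 6 Kupffer cell genes were called higher, and 3 neutrophil genes and 4 dendritic cell genes lower, and without F4/80+ replicate 3, 2 neutrophil genes were called lower. On the other lists the dendritic cell receptor Ccr7 was the only gene called between the populations (-2.08, edgeR adjusted p = 0.0284, with no dendritic cell gene called without F4/80+ replicate 1 or 2 or CD11b+ replicate 2), beside 1503 genes with an unadjusted p below 0.05. The part of these cells in the spread of the trio was not tested.

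**Figure D4:**
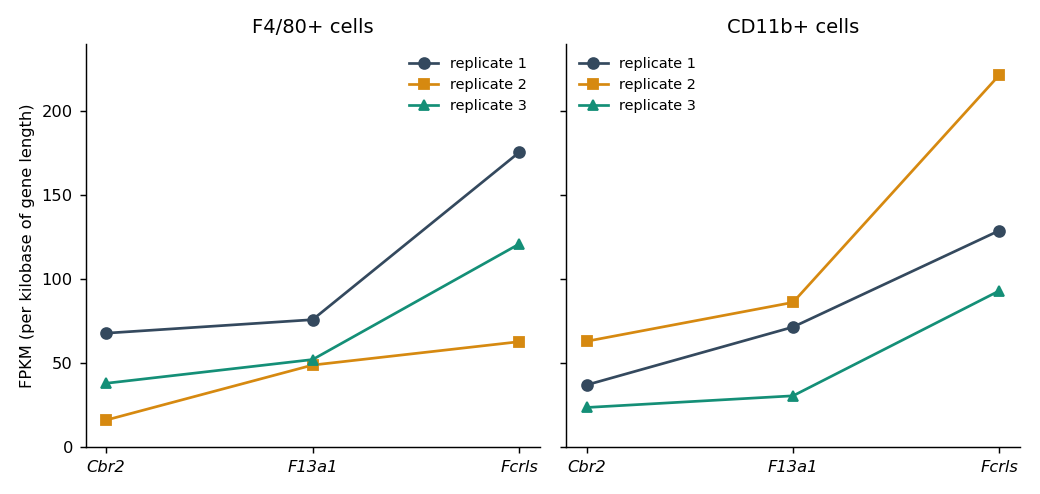
FPKM, the level per length of gene and library size, of the 3 genes in each library of sorted F4/80+ cells (left) and CD11b+ cells (right), with a line for each replicate. Lines keep 1 order across genes within a panel, and Fcrls, at 62.6 to 221.6 FPKM, is the highest gene in every library.

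Per length, Fcrls was the most abundant of the 3 in sorted cells. It averaged 119.6 FPKM in F4/80+ and 147.8 in CD11b+ cells, against 58.8 and 62.6 for F13a1 and 40.5 and 41.1 for Cbr2. By mean FPKM among all genes, Fcrls ranked 378 in F4/80+ and 358 in CD11b+ cells, F13a1 760 and 816, and Cbr2 1158 and 1250. In Ht tissue their ranks were 793, 2701 and 2023. Cbr2 thus stood above F13a1 per length in Ht, at 19.2 and 14.7 FPKM, and below it in the sorted cells.

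Against Lt tissue, which did not enter the choice, both sorted populations were far higher. F4/80+ cells had a log2 fold change of 4.62 for F13a1 (SE 0.45, edgeR adjusted p = 8.78e-07), 5.18 for Fcrls (SE 0.63, edgeR adjusted p = 6.90e-06) and 4.30 for Cbr2 (SE 0.68, edgeR adjusted p = 8.74e-05). CD11b+ cells had 4.71 for F13a1 (SE 0.45, edgeR adjusted p = 7.19e-07), 5.49 for Fcrls (SE 0.64, edgeR adjusted p = 4.31e-06) and 4.32 for Cbr2 (SE 0.68, edgeR adjusted p = 7.90e-05). All 3 were called higher in both, as were 19.7% of the 18407 genes tested for F4/80+ and 20.0% for CD11b+ cells. The 2 comparisons share the Lt samples. Sorted and tissue libraries also differ in preparation and sex. The Y-linked gene Ddx3y was at 0 in all 6 sorted libraries and at 14.9 to 129 CPM in tissue, while Xist, which is expressed from the inactive X chromosome, was at 322 to 1035 CPM in sorted cells and at most 0.21 CPM in tissue. These differences cannot be told apart from the sort itself.

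Relative to the macrophage list, the sorted cells stood near Mt2 tissue for Cbr2 and Fcrls. Mt2 is the kind of tissue the methods give as their source, although the Ddx3y and Xist levels set the sorted libraries apart from the Mt2 libraries. The relative level in F4/80+ cells minus that in Mt2 was 0.0070 for Cbr2 and -0.07 for Fcrls, against 1.11 for F13a1. For CD11b+ cells it was 0.17 for Cbr2, 0.30 for Fcrls and 1.13 for F13a1. In both populations the Cbr2 and Fcrls values spread to either side of those of Mt2. Against Ht the sorted cells were lower for each gene, by -1.89 for Cbr2, -0.79 for F13a1 and -1.36 for Fcrls in F4/80+ cells and by -1.72, -0.76 and -0.99 in CD11b+ cells. Single CD11b+ libraries reached the Ht range, since replicate 2 stood at -0.72 for F13a1 and -0.89 for Fcrls. No sorted library reached it for Cbr2, where the highest was -3.50. Ht cells were not sorted, and the cell source of the transcripts in Ht was not measured.

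Genes of platelets, lung epithelium, adipocytes and peritoneal macrophages summed to less than each of the 3 genes in Ht. The sum of mesothelial genes did not, and it rested mainly on Msln. Such sums do not show which cells made the 3 transcripts, and that was not tested. In Ht and in the sorted cells the summed level of 9 platelet and megakaryocyte genes was 2.42 to 8.42 CPM, against 97.9 CPM or more of F13a1 in each library, and Ppbp fell by 1.97 from Mt to Ht. No gene of that list was called without Mt3 replicate 1 or 2, Mt2 replicate 1, Mt1 replicate 2 or either Ht sample. That sum leaves out Pf4, platelet factor 4, which macrophages also make and which is on the resident list. Pf4 measured 25.55 to 30.56 CPM in Ht and 85.2 to 165.7 CPM in sorted cells. Lung epithelial genes, 7 in all, summed to 0.80 to 1.43 CPM in Ht and to at most 0.35 CPM in sorted cells, with 1 of 2 tested called lower from Mt to Ht (Sftpa1, -5.58) and with the club cell gene Scgb1a1 and the surfactant genes Sftpb and Sftpc at or under 3 counts in every Ht library. The 6 adipocyte genes summed to 13.3 to 13.7 CPM in Ht and at most 4.29 CPM in sorted cells, and Plin4 fell by 1.90 from Mt to Ht. Prg4 and Gata6, which mark peritoneal macrophages, were called lower in Ht than in Mt, with differences of -3.60 and -1.63, as was Alox15 with -1.86, and the 7 genes of that list summed to 15.8 to 16.8 CPM in Ht. Of 6 mesothelial genes Msln was called higher (1.39). The list summed to 22.3 to 102.7 CPM in Mt and 125.7 to 145.1 CPM in Ht, above the F13a1 level there. Over the tissue samples Msln averaged 50.2 CPM and every other gene of the list at most 0.826 CPM. Without Mt3 replicate 2 there were 2 mesothelial genes called higher, and without Mt3 replicate 1 there were 2 lung epithelial genes called lower.

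Microglial genes, the company in which Fcrls is best known, were partly present. Tmem119, Cx3cr1 and P2ry12 were among 4 of 7 called higher from con to Lt (5.48, 4.25 and 1.28), together with Siglech (1.77), and the count was 2 without con replicate 2 or without Lt replicate 2. From Mt to Ht their differences were 0.99, 0.99 and 0.61 and none passed (edgeR adjusted p = 0.0526, 0.0929 and 0.105), while 3 genes of the list were called higher without Mt2 replicate 2. Sall1, a transcription factor gene of microglia that averaged 20.1 CPM over all tissue samples, fell by 3.23, and Slc2a5 fell by 3.96. In sorted cells Sall1 was at or under 3 counts in each library.

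Of 5 Fc receptor-like genes, the relatives of Fcrls, 4 were tested, and they averaged under 1 CPM in tissue. None was called higher from Mt to Ht, against 1.5% of all genes. None was called from con to Lt, against 12.4% called higher over all genes, and 4 genes are too few to differ from these shares. From con to Lt all 4 differences were positive (median 1.58). Fcrl5 differed by 5.30 (edgeR adjusted p = 0.0903) and Fcrlb by 2.43 (edgeR adjusted p = 0.113). From Mt to Ht Fcrl5 differed by 1.24 (edgeR adjusted p = 0.107), Fcrlb by 0.021 (edgeR adjusted p = 0.980) and Fcrl1 by -1.05 (edgeR adjusted p = 0.136). Fcrla, a gene of B cells, fell by 1.97 from Mt to Ht. The 5 genes together summed to 26.2 to 30.5 CPM in sorted libraries and 2.07 to 4.90 CPM in metastases, so like Fcrls they were higher in sorted cells.

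The partner and many substrates of factor XIII were lower in Ht than in Mt. F13b averaged 314.3 CPM ± 17.4 (SD, n = 2) in con, 146.6 ± 88.2 (SD, n = 6) in Mt and 7.88 ± 2.68 (SD, n = 2) in Ht, and it fell by 4.09 from Mt to Ht. Fga, Fgb and Fgg, the fibrinogen chains, fell by 4.17, 4.02 and 4.17, and Vtn, vitronectin, fell by 3.88. In all 9 of 14 genes of factor XIII and fibrin turnover were called lower and none higher in Ht (median -3.86), against 13.4% lower over all genes. Fga, Fgb and Fgg are also on the hepatocyte list, of which all 13 genes were called lower (median -4.02), and the part of hepatocyte content in this fall was not tested. None was called with either Ht sample left out, and 1 was called higher without Mt2 replicate 2. Among the genes of this list called higher from con to Lt were Plat (5.46), Plaur (3.70) and Plau (2.27), which act in plasminogen activation. Among other transglutaminases, Tgm2 and Tgm1 rose from con to Lt (1.14 and 1.34, with 0 of the list called without con replicate 2 and 1 without any other con or Lt sample) and Tgm1 fell by 1.84 from Mt to Ht, while Tgm2 differed there by -0.32 (edgeR adjusted p = 0.133).

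Most genes on a list of carbonyl reductases and related enzymes were lower in Ht than in Mt. From Mt to Ht 7 of 10 were called lower and none higher (median -1.25), led by Hsd11b1 (-4.85) and Pecr (-3.87), against 13.4% lower over all genes and 13 of 13 hepatocyte genes (median -4.02). None of the list was called with either Ht sample left out, and the part of hepatocyte content in this fall was not tested. Of the other carbonyl reductases themselves Cbr4 fell by 1.07, while Cbr1 differed by -0.95 (edgeR adjusted p = 0.069) and Cbr3 by 0.30 (edgeR adjusted p = 0.567). None of the 10 was called from con to Lt (median -0.524). Dcxr, which encodes a related reductase of xylulose and whose transcription start lies 4833 bases from that of Cbr2 on the same strand, averaged 119.4 CPM in con, 44.3 in Mt and 8.91 in Ht, and it fell by 2.11 from Mt to Ht. In the sorted cells Dcxr averaged 36.1 CPM in F4/80+ and 40.1 CPM in CD11b+.

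Of the genes whose transcription starts lie within 100 kb of that of Cbr2, none was called higher from Mt to Ht. Pycr1 differed by 0.91 from Mt to Ht and Hmga1b by 0.93, both short of the fold threshold, and Notum fell by 3.57 and Dus1l by 1.09. Around the start of F13a1 the tables list a predicted gene and a pseudogene only. Near Fcrls, Kirrel, which encodes a cell adhesion protein of the kidney filter and starts 88991 bases away, rose by 1.07 (edgeR adjusted p = 0.0474), and the Kupffer cell gene Cd5l, 94143 bases away, fell by 2.55. Gm30489, annotated antisense within F13a1, averaged at most 1.499 CPM in any group, and the strand setting of the counting is not given in the sources used here.

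Correlations over the 13 tissue samples are given as a description, since 8 of these are the Mt and Ht samples whose rise chose the genes, which in itself makes the 3 alike. Pearson's r of log2(CPM + 1) was 0.957 between F13a1 and Fcrls, 0.95 between Cbr2 and Fcrls and 0.922 between Cbr2 and F13a1. These values describe samples that share groups and a falling hepatocyte content, and other genes gave values as high. Among the correlations with Cbr2, 5 other genes matched or passed Fcrls and 80 matched or passed F13a1. Among those with F13a1 the numbers were 59 for Fcrls and 1256 for Cbr2, and among those with Fcrls they were 368 for F13a1 and 676 for Cbr2. Among 14102 genes, the nearest to Cbr2 were Nxpe5 (0.957), Dnaic2, Rilpl1, Ism1 and Glt8d2, and the nearest to F13a1 were Unc119 (0.981), Gm36161, Gprc5b, Pmp22 and Cd109. Fcrls was nearest to Prx (0.984), Acss1, Lrrn4cl, Coro1c and Ppp1r3d. Averaged over the 3 genes, Unc119 (0.962), Lrrn4cl, Pmp22, Tspan9 and Bin1 came first.

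The genes nearest in tissue differed in the sorted cells. Nxpe5, Gm36161 and Acss1 averaged 51.1, 66.0 and 29.8 CPM in F4/80+ cells, against 10.6, 17.5 and 6.85 CPM in Ht, so they were higher in sorted cells as the 3 genes were. Cd109 (2.03 CPM against 23.1 in Ht), Gprc5b (4.20 against 58.6), Tspan9 (16.9 against 175) and Lrrn4cl (0.464 against 7.37) were lower there. A high correlation in tissue thus joined genes with opposite levels in these cells.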

How the data were processed

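Gene counts were deposited by the authors as 2 tables of raw counts, 1 of 14 tissue libraries and 1 of 6 libraries of sorted cells. Per the labels and the methods, total RNA was extracted with TRIzol and libraries were made with an NEBNext Ultra RNA kit. The submitters' processing notes name CASAVA, HISAT2 2.0.5, featureCounts 1.5.0-p3 and GRCm38 (mm10). The strand setting is not given in the sources used here. FPKM values given here were computed from the counts, the TMM scale and the deposited gene lengths.

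The table of sorted cells gives no gene symbols, so genes were matched there by Ensembl identifier. Counts of Ht replicates 1 and 3 were summed. Tests used edgeR 4.0.16 in R 4.3.3 (glmQLFit and glmQLFTest, TMM, filterByExpr, Benjamini-Hochberg adjustment over all genes tested), fitted to 13 tissue samples, to 6 sorted samples, or to both together for sorted cells against Lt. Calls needed an adjusted p no higher than 0.05 together with a log2 fold change of 1 or more in size, as in the study's methods. The standard error is the log2 fold change over the square root of F. CPM values are on the TMM scale over all 19 samples. Log2(CPM + 1) served for levels relative to the macrophage list and for Pearson's r, which used genes with an average log2 CPM of at least 0. Exact 95% intervals of count ratios were computed with scipy 1.17.1.

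The 3 genes and the gene lists were chosen with earlier results of these data known. Beside the 3 genes, the text names the next genes by rise from Mt to Ht, the 4 most abundant members of each list or those called where 5 or fewer were, the 5 genes nearest by r, and neighbors within 100 kb of a listed start, extended after their values were seen to transcription starts, since the listed start of a minus-strand gene is its other end. Other genes of a list were named for their known role, after their values were seen. The result of 1 listed gene is not reported here. DESeq2 1.42.0, total-count scaling, other filters, a replicate block, left-out samples and other uses of the Ht libraries were tried as alternatives. Fits were tested on simulated counts.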

Additional observations from a re-analysis of the deposited data

How the results depend on the processing

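Of the alternatives for Cbr2, F13a1, Fcrls and the list of tissue-resident macrophage genes, 242 values kept their direction and call or, for counts and for differences given without a test, stayed within 1.5 times or 1 SD of the reported value, 21 moved further, 4 turned direction and 1 lost its call. Total-count scaling gave log2 fold changes from Mt to Ht of 3.45 for Cbr2, 2.69 for F13a1 and 2.64 for Fcrls, and leaving out single samples gave 2.56 to 3.18, 2.00 to 2.30 and 1.92 to 2.41. From con to Lt, leaving out single samples gave 3.93 to 8.76 for Cbr2, which lost its call without con replicate 1 (3.93, edgeR adjusted p = 0.0616, with 1 con sample assumed to vary like the other groups), 5.42 to 5.92 for F13a1 and 6.37 to 10.25 for Fcrls. F4/80+ against CD11b+ cells turned direction for all 3 genes without CD11b+ replicate 2 (0.37 for Cbr2, 0.16 for F13a1, 0.056 for Fcrls) and for Cbr2 without F4/80+ replicate 2 (0.32), within ranges of -0.66 to 0.37, -0.46 to 0.16 and -0.74 to 0.056, none of them called. The cause was not tested. A minimum of 10 counts in every library left out all 3 genes from the fits with tissue, so it gave no value there.

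On the list of tissue-resident macrophage genes, the number called higher from con to Lt was 3 as reported, 5 with total-count scaling, 6 without a filter, 0 with the minimum of 10 counts, which tests fewer genes, and 1 to 2 with single samples left out. The number called lower was 1 without a filter and 0 to 1 with samples left out. From Mt to Ht 6 were called higher with total-count scaling, and 0 to 4 higher and 0 to 7 lower with samples left out. Between the sorted populations the number called higher was 3 with DESeq2, 4 without a filter and 1 with the replicate block, and the number called lower was 1 with DESeq2 and 1 without a filter. On the other lists, 1311 counts stayed within 1.5 times the reported count and 165 did not.

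Replicate numbers did not pair con with Lt, Ht with the Mt groups or the sorted populations with each other. Deviations of same-numbered samples had a correlation of -0.119 between con and Lt, -0.236 to -0.143 between Ht and the Mt groups and -0.124 to 0.012 between the sorted populations. Among Lt and the Mt groups, which were compared without a test, it was 0.15 to 0.541. With the replicate number as a block, con to Lt gave 4.78 for Cbr2, 5.66 for F13a1 and 7.21 for Fcrls, and no call of the 3 genes changed. Over all genes the block gave 2229 higher and 108 lower calls from con to Lt, against 2133 and 44 without it and 1919 and 37 with the numbers of the Lt samples exchanged, a fit chosen after seeing the data. Over all genes from Mt to Ht, 257 were called higher as reported, 438 with the block and 450 with DESeq2. Between the sorted populations the calls were 1 higher and 10 lower, against 28 and 50 with the block and 133 and 167 with DESeq2. DESeq2 called 166 genes lower from con to Lt. Depth limits the con values of Cbr2 and Fcrls, at 0 to 2 counts.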
